A study of Drosophila melanogaster with 5 samples.

Results

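The transcriptomes of whole adult flies were compared between 2 lines of Drosophila melanogaster that the labels call Rev and IR6, using 2 of the 5 libraries in the series. Each library held polyadenylated RNA of the full bodies of 10 males under 24 h old and 10 females aged 0 to 3 days, pooled, so that newly emerged adults of both sexes contributed to it. The RNA was reverse-transcribed with random primers and sequenced on an Illumina HiSeq, without strand information and without the normalization step that the labels give for a whole-body library of a line called iso1a. The labels describe both lines by name alone and give no genotype, allele or treatment. In other work, lines called RevI, in which the retrotransposon ZAM is mobile, arose from a line called wIR6, and the labels do not say whether Rev and IR6 are those lines.

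Every gene and every annotated copy of a transposable element (TE) took part. The deposited gene counts came to 11685814 in Rev and 9633168 in IR6, over 12817 and 12717 genes with at least 1 count. A ratio here is the level of a gene in Rev, in counts per 1000000 gene counts (CPM), over that in IR6, on the log2 scale, so positive values are higher in Rev. With 1 library per line there was no replicate spread and no test. The 95% exact Clopper-Pearson interval printed after a ratio covers counting error alone, and genes past a 2-fold ratio and with 50 counts or more over both libraries are called higher or lower. Differences in age, feeding, the share of a tissue in the body or the extraction cannot be told apart from differences between the lines, and in whole bodies fewer cells of a type and less RNA per cell cannot be told apart. Genes of the ovary, the testis, the eye and the flight muscle had counts in both libraries, as the labelled whole bodies of both sexes require.

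Adult flies in their first days still carry fat body cells of the larva, harden and pigment a new cuticle, and begin to feed and to fill their reproductive glands. Cytochrome P450s, glutathione S-transferases and UDP-glycosyltransferases oxidise and conjugate foreign and internal compounds, and their genes lie in clusters of recent duplicates that often differ between laboratory lines. TEs are held down in the fly by small RNAs of the piRNA pathway, and each line carries its own set of insertions.

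Of 10300 genes tested, 447 (4.34%) had ratios of 2-fold or more in favour of Rev and 357 (3.47%) in favour of IR6, and 9496 lay within 2-fold. With the TMM factors of edgeR the numbers were 350 higher and 416 lower, so the share of called genes that were higher went from 55.6% to 45.7%. These factors moved all ratios by -0.09, from a median of 0.10 to 0.01. With these factors 16 of the 131 genes selected by ratio, counts or list that had passed fell short of 2-fold. All 16 were higher in Rev, with ratios between 1.01 and 1.09. At least 8-fold differences were seen in 25 genes higher and 18 lower. The share past 2-fold in either direction, 7.81% of all tested genes, was 16.1% among genes with 50 to 200 counts and 3.98% among those with at least 5000. The share of genes higher was 2.63% on the X chromosome, against 4.19% to 5.03% on the large autosome arms, and the share lower was 2.13% on the X against 3.63% to 3.93%.

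**Figure D1:**
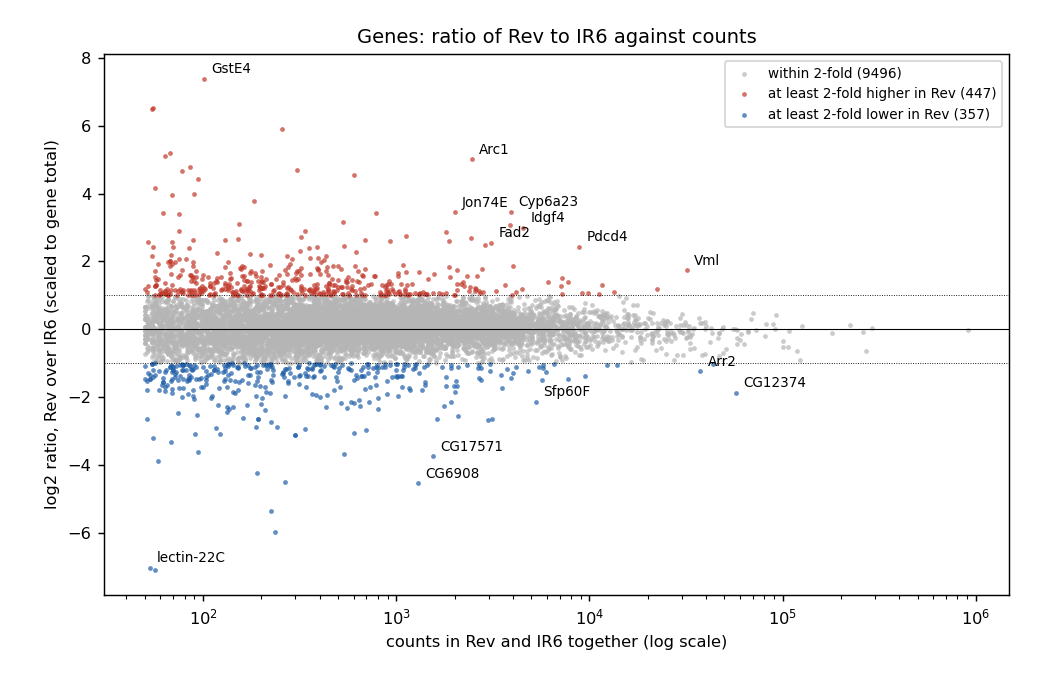
Each point is 1 of the 10300 tested genes, with its counts in both libraries together on the horizontal log axis and its log2 ratio of Rev to IR6 on the vertical axis. Dotted lines mark 2-fold: 447 genes lie at or above the upper line (red), 357 at or below the lower line (blue) and 9496 between them (gray), and named points are genes described in the text.

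Among the called genes with the most counts, those higher in Rev included Vml, a vitelline membrane protein, with 25603 counts against 6292 (1.75, 1.71 to 1.79), and Vm26Ab, another, with 16314 against 5928 (1.18, 1.14 to 1.22). Pdcd4, which in mammals restrains the translation factor eIF4A, had 7686 counts against 1167 (2.44, 2.35 to 2.53). The importin gene Kap-alpha3 (8013 against 3191) and the translation factor gene eIF4B (6601 against 2584) were also higher, at 1.05 and 1.07. The cuticle protein gene Cpr97Eb had 5582 against 1625 counts (1.50). CG33205, CG5399, CG10565 and CG16926 complete the 10 and ranged from 1.07 to 1.39.

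Lower in Rev, CG12374 led with 14226 counts against 42913 (-1.87, -1.90 to -1.84). The ribosomal protein gene RpL21 followed with 16304 against 27473 (-1.03). Fdh, which encodes formaldehyde dehydrogenase, had 5159 against 8722 counts (-1.04), and Sodh1, a sorbitol dehydrogenase of the polyol pathway, 2361 against 5365 (-1.46). Rab11, a small GTPase of recycling endosomes, had 2050 against 3686 (-1.12). The others of the 10 were Arr2, epsilonTry, Jon25Biii, Ebp and CG34159, of which the first 4 are described with their groups.

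At the largest ratios, 11 genes had at least 50 counts in Rev and at most 3 in IR6, and 8 of these had more than 3 counts in the iso1a whole body. These limits are raw counts, and 3 counts came to 0.257 CPM in Rev and 0.311 in IR6. LysC, LysD, LysE, Cyp12d1-p and Cyp12d1-d, copies whose reads may be shared, are among the 11. For GstE4, of the glutathione S-transferases, 101 counts in Rev stood against 0, which is at least 27.8-fold higher when IR6 is set to the floor of 3 counts per library. CG31205 had 55 against 0 (at least 15.1-fold), and CG34217 had 253 against 3, a ratio of 59.7-fold with an interval on the log2 scale of 4.56 to 8.41. Arc1, a gene of the synapse whose protein forms capsids that carry RNA and descends from a retrotransposon Gag protein, had 2402 counts against 61 (5.01, 4.65 to 5.41). Its neighbouring relative Arc2 had 58 against 16 (1.55), and Iris, derived from a retroviral envelope gene, had 523 against 400 (0.11). CtsL3, a cathepsin L relative, had 296 against 9 (4.69), and CG12224 583 against 20 (4.55).

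In the other direction 2 genes had at least 50 counts in IR6 and at most 3 in Rev. CG1304 had 0 against 56 (at least 22.6-fold lower) with 213 in the iso1a whole body. The C-type lectin gene lectin-22C had 0 against 53 (at least 21.4-fold lower) and 0 in iso1a. Other large differences were in CG31639, with 4 counts against 230 (-5.96), CG6908, with 64 against 1230 (-4.53), CG15535, with 13 against 252 (-4.50), CG17571, with 129 against 1424 (-3.74), and CG8578, with 46 against 487 (-3.67). MFS1, named as a transporter of the major facilitator superfamily, had 7 against 61 (-3.31).

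Genes that process foreign compounds differed member by member. In the CYP3 clan of P450s, which holds many enzymes linked to insecticide metabolism, 4 of 30 tested genes were higher and 1 lower, with a median of -0.12 beside 0.10 for all genes. Cyp6a23 had 3650 counts in Rev and 272 in IR6 (3.47, 3.29 to 3.65), and Cyp9b2 1650 and 402 (1.76, 1.60 to 1.92). Cyp28a5 had 244 and 88 (1.19), whereas Cyp9h1 was lower, with 140 and 373 (-1.69). Cyp6g1, whose raised expression gives DDT resistance in field strains, had 3667 and 5133 counts (-0.76) and did not pass. In the CYP4 clan 2 of 27 were higher, and Cyp4g1, needed to make cuticular hydrocarbons, had 35854 and 30711 counts (-0.06).

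The mitochondrial P450 clan had 6 of 11 tested genes higher and none lower, with a median of 1.05, and 5 higher and a median of 0.96 with TMM factors. Cyp12a4, which can confer resistance to lufenuron, had 745 counts in Rev against 297 in IR6 (1.05, 0.85 to 1.25). Cyp12a5, beside it in the genome, had 319 against 85 (1.62, 1.28 to 1.99), and Cyp12c1 had 235 against 87 (1.15). The duplicates Cyp12d1-p and Cyp12d1-d had 54 against 2 and 54 against 0, the latter at least 14.8-fold higher. Their sequences are nearly alike and their reads may be split or shared between them, so these 2 values are uncertain as single genes.

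Among glutathione S-transferases, the epsilon class had 5 of 13 tested members higher and 2 lower, with a median of 0.29. GstE1 had 1001 counts against 123 (2.74, 2.47 to 3.03), GstE6 212 against 52 (1.74), and GstE10 156 against 53 (1.27). GstE10 and GstE1 overlap in the annotation, and these libraries do not keep the strand. GstE11 was lower, with 80 against 196 (-1.57), and so was GstE3, with 46 against 156 (-2.03). GstE12, the epsilon member with the most counts among those that did not pass, had 1328 against 1208 (-0.14). Outside this class, GstD10 (204 against 70, 1.26), GstD5 (74 against 15, 1.99) and GstZ1, of the zeta class (554 against 134, 1.76), were higher, while GstD1, which acts on DDT, had 12089 against 12719 (-0.35).

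UDP-glycosyltransferases, which attach sugars to lipophilic compounds, had 4 of 22 members higher and 3 lower. Ugt35C1 had 384 counts against 86 (1.87, 1.54 to 2.23) and Ugt37A3 200 against 70 (1.23), while Ugt49B1 had 266 against 446 (-1.02) and Ugt304A1 27 against 59 (-1.39). Of 10 alpha-esterases, hydrolases encoded in a cluster, none was higher and 2 were lower. alpha-Est2 had 76 against 525 (-3.06, -3.43 to -2.72), and alpha-Est7, the fly relative of the blowfly esterase behind organophosphate resistance, had 1203 against 1626 (-0.71). The metallothioneins, which bind copper and other metals, had 2 of 3 members lower: MtnA had 90 counts against 276 (-1.89) and MtnD 11 against 80 (-3.09), while MtnB had 52 against 27 (0.65).

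**Figure D2:**
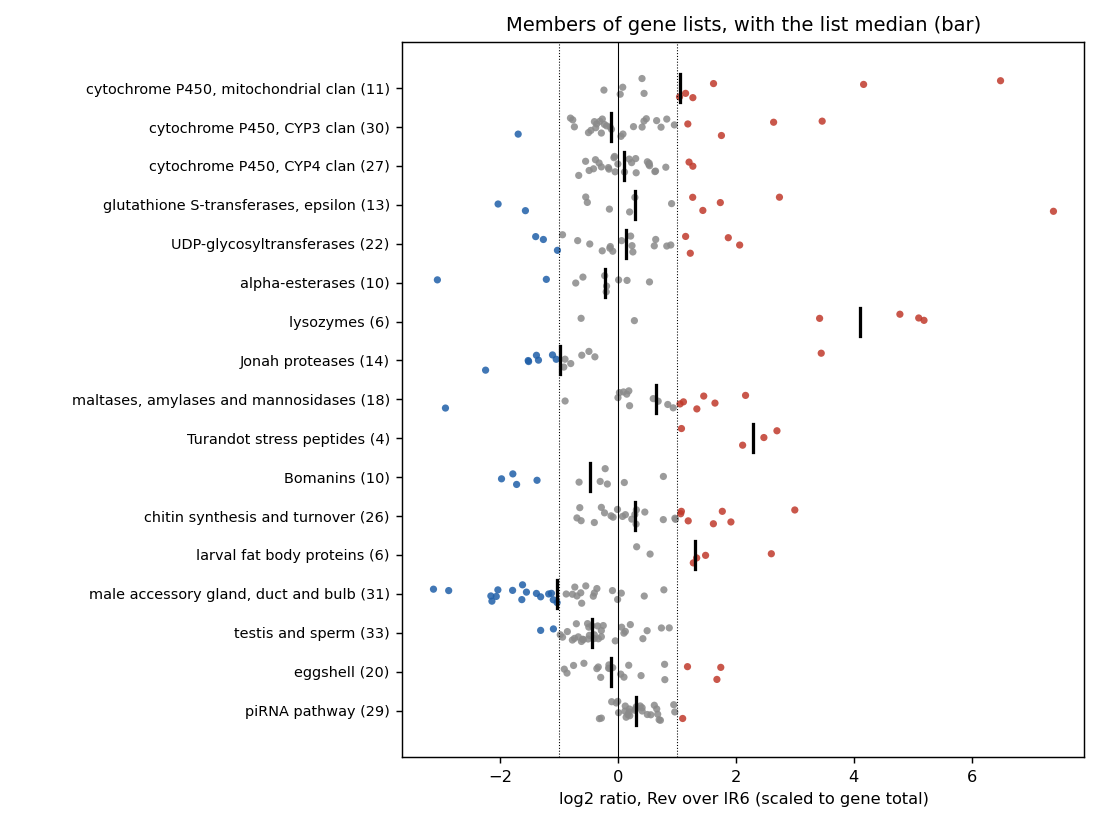
Each point is a tested gene of the list named at the left, with the number tested in parentheses, placed by its log2 ratio of Rev to IR6. Red points are at least 2-fold higher, blue points at least 2-fold lower and gray points within 2-fold; the black bar is the list's median, which is 4.10 for lysozymes, 2.30 for Turandot peptides and -1.03 for genes of the male accessory gland, duct and bulb.

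Digestive genes moved in both directions. Lysozymes of the gut, which break down bacterial cell walls in food, had 4 members higher of the 6 tested among 7 in the list, with a median of 4.10. LysB had 58 counts against 4 (3.42), LysC 62 against 1 (5.10), LysD 66 against 1 (5.19) and LysE 83 against 2 (4.78). These 4 genes are close copies, LysC and LysD overlap in the annotation used here, and reads may be shared among them. LysP, a salivary gland member beside them, had 214 against 145 (0.28) and LysX 33 against 42 (-0.62). In the iso1a whole body LysE had 86 counts and LysB 1, and LysC and LysD had 0.

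Jonah genes, which encode serine proteases of the midgut, had 7 of 14 members lower and 1 higher, with a median of -0.98, and 13 of the 14 ratios were below 0. With TMM factors 8 were lower. Jon25Biii had 4582 counts against 7790 (-1.04, -1.10 to -0.99), Jon99Cii 1131 against 2369 (-1.35) and Jon99Ciii 607 against 1428 (-1.51). The exception was Jon74E, with 1861 against 140 (3.45, 3.21 to 3.71). The trypsin gene epsilonTry, not of this family, had 3056 against 6468 (-1.36). Maltases, amylases and mannosidases had 6 of 18 members higher and 1 lower, with a median of 0.64. Mal-A1 had 5152 against 2043 (1.06), and 3 neighbouring lysosomal alpha-mannosidase genes were all higher: LManIII had 367 against 67 (2.17), LManV 811 against 213 (1.65) and LManVI 3016 against 1149 (1.11). Mal-B1 was lower, with 46 against 290 (-2.92). Mucins and peritrophins, which line the gut and other epithelia, had 3 of 10 members higher and all 10 ratios above 0, among them Muc11A (912 against 299, 1.33) and Mur29B (946 against 373, 1.06).

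Immune and stress genes did not share a direction. The Turandot genes, whose secreted peptides accumulate after heat, infection and other stress, were higher for the 4 members of 7 that had enough counts to be tested. TotA had 2495 counts against 369 (2.48, 2.32 to 2.64), TotM 2169 against 275 (2.70, 2.52 to 2.89), TotC 302 against 57 (2.12) and TotX 70 against 27 (1.08). Bomanins, short peptides made by the fat body under Toll signalling, had 4 of 10 members lower and none higher. BomT3 had 240 against 777 (-1.97, -2.19 to -1.76) and BomT2 119 against 254 (-1.37), while BomS3, with the most counts among those that did not pass, had 3805 against 2905 (0.11). Of 9 antimicrobial peptide genes, AttC was higher (741 against 299, 1.03) and AttD lower (31 against 160, -2.63), and Drs, the antifungal Drosomycin gene, had 173 against 171 (-0.26). With TMM factors AttC fell within 2-fold (0.94). No peptidoglycan recognition protein of 9, no thioester protein or prophenoloxidase of 7, and no small heat shock or Hsp70 gene of 8 passed 2-fold in either direction. Over all tested genes 7.81% passed, and these lists are short. Of 23 serpins only Spn77Bb passed (146 against 347, -1.52), and of 9 C-type lectins only lectin-22C; with TMM factors 2 of each list were lower.

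The listed genes of chitin turnover, tanning and the larval fat body that passed 2-fold were all higher in Rev. In chitin synthesis and turnover 7 of 26 genes were higher and none lower, with a median of 0.30, and 5 were higher with TMM factors. Idgf4, a secreted chitinase-like growth factor, had 4103 counts against 422 (3.00, 2.86 to 3.15). The chitin-binding protein gene obst-A had 2239 against 540 (1.77), and the chitin deacetylase gene serp 1949 against 767 (1.07). The chitinase genes Cht5 (231 against 50, 1.92), Cht4 (214 against 57, 1.62) and Cht7 (123 against 44, 1.19) were higher as well. Of 20 tanning and yellow genes 2 were higher. One was ple, the tyrosine hydroxylase that starts the synthesis of dopamine and of pigments, with 2752 against 914 (1.31, 1.20 to 1.42). The other was yellow-h, with 595 against 229 (1.10).

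The larval serum protein and fat body protein genes, markers of larval fat body cells that persist in young adults, had 4 of 6 members higher and none lower, with a median of 1.31. Lsp1gamma had 814 counts against 110 (2.60, 2.32 to 2.91), Lsp1alpha 185 against 54 (1.49), Fbp1 798 against 260 (1.34) and Fbp2 440 against 149 (1.28), while Lsp2 had 1831 against 1209 (0.32). Their summed level was 400 CPM in Rev and 220.4 in IR6. The part that the age of the flies within the sampled range had in these values was not tested. Among genes that respond to ecdysone, the steroid hormone of metamorphosis, 1 of 15 was higher, br (174 against 69, 1.05), and none with TMM factors. In the annotation br overlaps Mur2B, and these libraries do not keep the strand. Among those of juvenile hormone, 1 of 15 was higher, Jhbp1 (702 against 281, 1.04), and none with TMM factors.

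In lipid metabolism the largest difference was in Fad2, a desaturase that makes the diene pheromones of the female cuticle, with 2707 counts against 381 (2.55, 2.39 to 2.71). It was the single member of 13 in its list to pass, and Desat1, the desaturase for both sexes, had 19298 against 15364 (0.05). Lipase and lipid droplet genes had 3 of 18 members higher and 3 lower. Lip4 had 421 against 127 (1.45), and Lsd-1, a perilipin on the surface of lipid droplets, 2015 against 781 (1.09). Lower were mag, a lipase of the gut, with 180 against 422 (-1.51), and the sterol-binding protein gene Npc2a, with 258 against 459 (-1.11). Of 25 genes of glycolysis, glycogen and trehalose, Pepck2 was higher (225 against 51, 1.85) and Pglym87 lower (94 against 173, -1.16), and Ald1, the aldolase gene with the most counts, had 48588 against 51301 (-0.36).

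**Figure D3:**
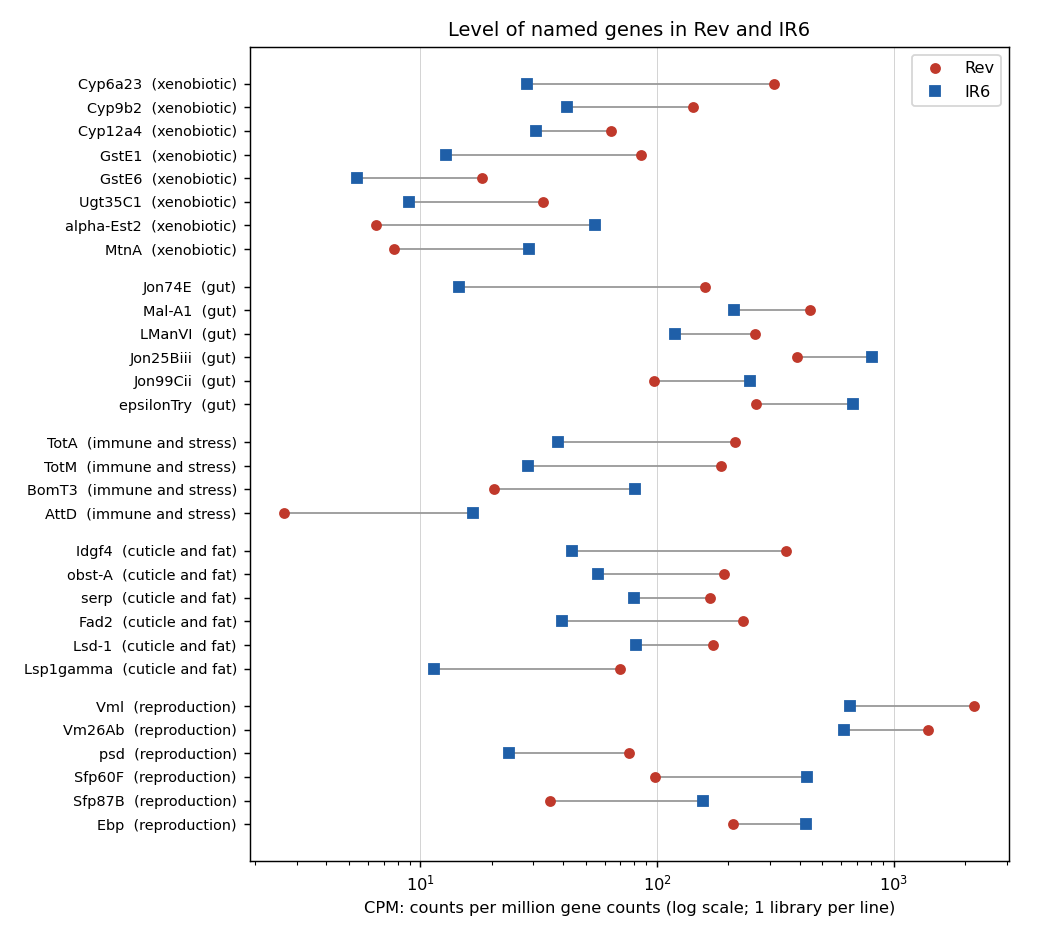
Level of 30 named genes in CPM on a log axis, as a red circle for Rev and a blue square for IR6, 1 library each, joined by a line whose length is the ratio. All were picked from genes past 2-fold, so how many of a group lie on each side is set by that choice. Cyp12a4 lies at 63.8 against 30.8 CPM and Cyp6a23 at 312 against 28.2 CPM, whereas Sfp60F lies at 97.6 against 429 CPM and alpha-Est2 at 6.50 against 54.5 CPM.

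Genes of the male accessory gland, ejaculatory duct and ejaculatory bulb, which supply the seminal fluid, had 16 lower and none higher among 31 tested members of 46 in the list, with a median of -1.03. Their summed level was 1208 CPM in Rev and 2305 in IR6. Sfp60F had 1141 counts against 4130 (-2.13, -2.23 to -2.04), Sfp87B 411 against 1507 (-2.15), Dup99B, a relative of sex peptide from the ejaculatory duct, 411 against 992 (-1.55), and Acp33A 36 against 262 (-3.13). The identifier CG15841 carried the same counts as Acp33A in all 3 whole-body libraries. Ebp, a protein of the ejaculatory bulb, had 2445 against 4115 (-1.03). Acp36DE, which is needed for sperm storage, had 2371 against 1432 (0.45). Ratios in this list, which pools gland, duct and bulb genes, ranged from -3.13 to 0.78. Of 33 testis and sperm genes 2 were lower, ProtA, a protamine (36 against 74, -1.31), and Prosalpha3T, a testis form of a proteasome subunit (18 against 32, -1.09), and 25 of the 33 ratios were below 0. With TMM factors 4 were lower. The testis tubulin gene betaTub85D had 3818 counts in each library (-0.28).

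On the female side, eggshell genes had 3 of 20 members higher and none lower, with a median of -0.11. The 3, Vml, Vm26Ab and psd (888 against 228, 1.68), encode proteins of the vitelline membrane or bound to it. The chorion gene Cp38, with the most counts in the list, had 139389 against 121994 (-0.09). The yolk protein genes lay close to equality, with Yp1 at 494716 against 413823 (-0.02). Among 11 genes of sex determination and dosage compensation only her, a zinc finger gene of sexual differentiation, passed, with 109 against 446 (-2.31, -2.63 to -2.01).

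In the nervous system and the eye, neuropeptide and peptide hormone genes had 2 of 29 members higher and 3 lower, and 1 and 4 with TMM factors. Over all tested genes 4.34% were higher and 3.47% lower. AstCC had 101 counts against 17 (2.26), and AstC, which encodes allatostatin C, 142 against 58 (1.01). Dh44, a diuretic hormone of the brain, had 22 against 52 (-1.50), and Ilp4, an insulin-like peptide, 22 against 49 (-1.42). Akh, the adipokinetic hormone, was the third lower (20 against 34, -1.03). The photoreceptor gene Arr2, an arrestin that ends the light response, had 12779 against 24775 (-1.23, -1.26 to -1.20), and Rh5, a blue-sensitive opsin, 170 against 289 (-1.04), whereas ninaE, the main opsin of the outer photoreceptors, had 3724 against 3700 (-0.27). Of 15 clock genes only cry, the blue-light receptor, passed (240 against 97, 1.02), and none with TMM factors. None of 11 genes of the indirect flight muscle passed, beside 7.81% of all tested genes in either direction. Of 26 vacuolar ATPase subunit genes, whose pump acidifies cell compartments, 1 was higher, Vha100-4 (101 against 41, 1.01), and none with TMM factors.

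Some called genes stood beside one another. Of 779 called genes with a next tested neighbour, 101 (13.0%) had that neighbour called in the same direction, beside 4.34% of all tested genes called higher and 3.47% called lower. There were 18 runs of at least 3 such neighbours, with 57 genes, and 3 of the runs had 4 genes. LysB to LysE on 3L formed 1. On 2L, CG14915 (52 against 21, 1.01), AstC, AstCC and Wdr59 (262 against 94, 1.20) were all higher. On 3L, Dnaaf6 (179 against 325, -1.14), gdrd (179 against 301, -1.03), CG17177 and CG13476 (192 against 329, -1.05) were lower, and within this run CG17177 stood far below the others, with 6 counts against 218 (-5.35). Among runs of 3 were the mannosidases LManIII, LManV and LManVI, the seminal genes Sfp60F, EbpII and Ebp, and the transferases GstE10, GstE1 and GstE2. Overlap in the annotation and shared reads between duplicates bear on some of these, and 38.1% of tested and 27.6% of called genes with an annotation entry overlapped another gene.

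**Figure D4:**
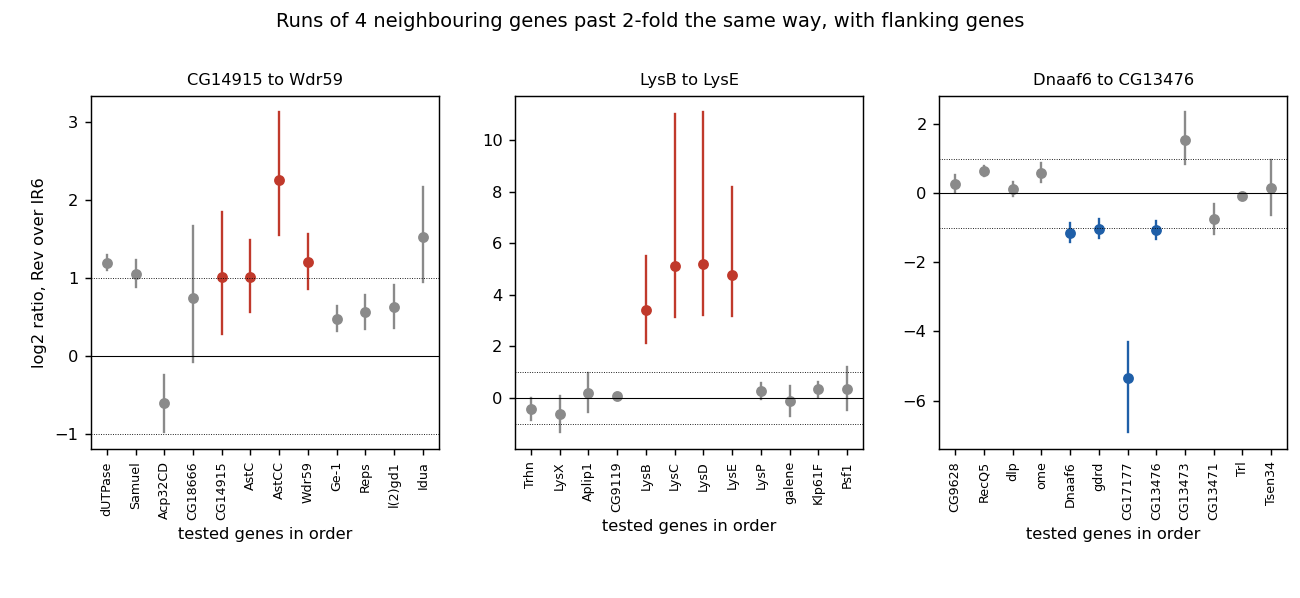
Log2 ratio of Rev to IR6 for tested genes in their order along the chromosome arm, around the 3 runs of 4 neighbouring genes called in the same direction; vertical bars are 95% exact counting intervals, colours mark the run and gray marks up to 4 tested genes on each side. LysB to LysE lie between 3.42 and 5.19 while LysP beside them lies at 0.28, and CG17177 lies at -5.35 between neighbours at -1.03 and -1.05.

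Few transcripts met the rule used here for departing from another transcript of their gene. Of 6610 transcripts compared with the transcript of their gene that had the most counts, 20 (0.303%) departed from it, in 13 genes. Departing meant a ratio at least 2-fold away and a counting interval that did not overlap that of the other transcript. Transcripts 2-fold away whose intervals overlapped are not among the 20, so the share past 2-fold alone is not given. Pih1D1, with a PIH1 domain found in chaperone partners, had 399 against 168 counts on transcript RC (0.97) but 280 against 448 on RA (-0.96). vir-1, a gene induced by virus infection, had 200 against 603 on RD (-1.87) and 2237 against 1832 on RB (0.01). For scra, which encodes anillin of the cytokinetic ring, RC had 158 against 47 (1.46) and RB 940 against 750 (0.05). Aptx, a DNA repair gene, had 886 against 194 on RB (1.91) and 58 against 31 on RA (0.61). In brp, which encodes a scaffold of the presynaptic active zone, 4 transcripts had ratios of 1.24 to 1.32, while RF had 111 against 99 (-0.11). CG30387, Atf-2 and CG5462 were the other 3 of the 8 largest. Reads shared by transcripts count for each of them, so a transcript that differs from its gene's others by a short stretch shows only part of its own difference.

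Genes that silence TEs mostly lay within 2-fold, as did 9496 of all 10300 tested genes. Of 29 piRNA pathway genes only armi, a helicase of piRNA biogenesis, passed, with 266 counts against 102 (1.10, 0.77 to 1.45). The median of the 29 was 0.30, beside 0.10 for all genes, with 24 ratios above 0 and 5 below. None of 15 genes of the siRNA and miRNA pathways and none of 22 heterochromatin and histone methylation genes passed. Su(var)205, which encodes heterochromatin protein HP1a, had 6974 against 7134 counts (-0.31).

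TE counts came to 278903 in Rev and 264154 in IR6 over 20953 annotated copies, of which 3568 had counts in both lines, 1850 in Rev alone and 1280 in IR6 alone. Copies seen in 1 line alone were mostly at the edge of detection, with a median of 1 count in each line, a maximum of 40 in Rev and of 185 in IR6. The 767 copies that reached 50 counts over both libraries held 92.2% of the TE counts in Rev and 94.0% in IR6. Of these, 89 (11.6%) were higher in Rev and 37 (4.82%) lower, with a median of 0.15. The 257 copies that the annotation names for Dvir_TART, an element of Drosophila virilis, supplied 54 of the higher and 2 of the lower copies. Among the other 510, 35 were higher and 35 lower. Copies of 2000 bp or longer were few, 32, of which 8 were higher and 6 lower. TE ratios were scaled to the gene total, and coordinates are those of the deposited files, of a build that the sources used here do not name. The labels do not show whether a copy annotated in the reference is present in Rev or in IR6, so a count there may come from another copy of alike sequence.

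Large ratios in favour of Rev were found at single copies, some long and some short. ZAM, a retrotransposon of the gypsy group, had an 8444 bp copy on U (sequence not placed on a chromosome) at 1399232 to 1407675, with 416 counts against 1 (7.84, 5.94 to 13.73), and a 7271 bp copy on 3L at 24161944 to 24169214, with 298 against 1 (7.36, 5.45 to 13.25). Of the other 7 tested ZAM copies 1 was higher, on X at 13621653 to 13621905 (97 against 27, 1.55), and the rest ranged from -0.64 to 0.22. An mdg1 copy of 7365 bp on 3R at 5663885 to 5671249 had 68 against 7 (2.91). TAHRE, a retrotransposon of the telomeres, had a 3532 bp copy near the end of the X sequence, at 6116 to 9647, with 81 against 13 (2.32). That ratio was not among the 10 largest. The telomeric element TART-C had 3 tested copies, all higher, and the one on chromosome 4 at 1291845 to 1292822 had 3066 counts against 1 (10.72, 8.82 to 16.61). It held 90.9% of the family's counts in Rev and 1.54% in IR6. The HeT-A copy directly before it, at 1286266 to 1291844, had 24 against 29 (-0.55), and the TART-C copy overlaps a TAHRE copy. Short copies were also among the largest: Stalker2 on X at 13640314 to 13640736 had 728 against 15 (5.28), and a 203 bp mdg1 copy on 2R at 4115404 to 4115606 had 95 against 1 (5.71). The rest of the 10 largest were 2 Dvir_TART copies, a further mdg1 copy and a 17.6 copy, with ratios from 2.87 to 3.20.

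**Figure D5:**
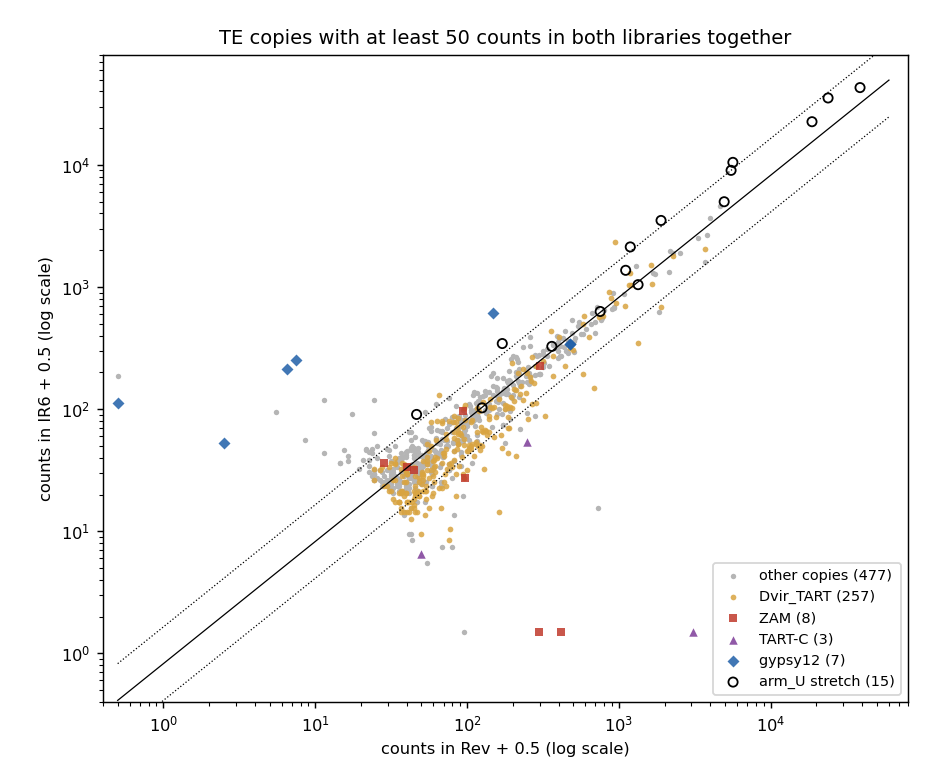
Counts in Rev (horizontal) and IR6 (vertical) of the 767 TE copies that reached 50 counts over both, each with 0.5 added, on log axes. The solid line marks an equal share of gene counts and the dotted lines 2-fold; 2 ZAM copies (squares) and 1 TART-C copy (triangle) lie at 1 count in IR6, 5 of the 7 gypsy12 copies (diamonds) lie above the upper dotted line, and open circles are the 15 tested copies of a stretch of U with many counts.

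Copies lower in Rev included 5 of 7 tested copies of gypsy12, an LTR retrotransposon. Its 2567 bp copy on U at 5945291 to 5947857 had 0 counts against 112 (at least 45.3-fold lower). On 3RHet, the heterochromatin of 3R, 3 overlapping copies between 640872 and 643144 had 7, 6 and 2 counts in Rev against 250, 212 and 52 in IR6, and these share reads. On 2R at 1150421 to 1152422 the counts were 148 against 618 (-2.34). The other pair of annotated copies, which name the same place on 3L, had 479 against 342 (0.21). The family as a whole had 1337 against 2170 (-0.98), a sum in which copies at the same place or overlapping each count in full. A 239 bp Stalker2 copy on X at 15741492 to 15741730 had 0 counts against 185 (at least 74.8-fold lower) and an INE-1 copy on 2L at 16679128 to 16679701 had 5 against 94 (-4.38). TART-B, another telomeric element, had a 4686 bp copy on U at 5767486 to 5772171 with 17 against 90 (-2.65). Copies of 412 on 3R at 26248830 to 26249082 (11 against 118, -3.64) and on 2L at 2285910 to 2286120 (24 against 118, -2.55), and a Quasimodo copy on 2R at 13930255 to 13930619 (8 against 55, -2.99), complete the 10 lowest.

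Summed over copies, 7 of 107 tested families (6.54%) were higher and 1 (0.935%) lower. TART-C had 3372 counts against 65 (5.41, 5.06 to 5.80), gypsy 75 against 28 (1.13), baggins 127 against 49 (1.09), Doc4-element 54 against 19 (1.20) and Dyak_TART 79 against 27 (1.25). A single copy, on X at 9572252 to 9573091, held 100% of the Dyak_TART counts in both lines. Within 2-fold were ZAM as a family, with 2557 against 1918 (0.14), Idefix, with 690 against 578 (-0.02), and the I-element, with 3969 against 2758 (0.25). The ZAM sum rests largely on 1 short copy on U at 5291575 to 5291827, with 1107 against 1370 counts. It held 43.3% of the family's counts in Rev and 71.4% in IR6, and lies in the stretch of U described below. The lower family was transib3, a DNA transposon, with 36 against 73 (-1.29). These calls moved with the scaling, as 4 families were higher and 4 lower with TMM factors. A stretch of U with 17 copies held 104244 of the TE counts in Rev and 134894 in IR6 (-0.65), and TE counts outside it had a ratio of 0.16. None of its 15 tested copies was higher and 5 were lower, with ratios from -1.29 to 0.08.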

How the data were processed

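The authors deposited counts of reads per transcript and, in a second file per library, the number of reads overlapping each TE copy, which the files' source column credits to S-MART. Per the submitters' processing notes the deposited counts rest on Bowtie; the sources used here give neither its version nor the build, nor how reads with several places were treated. The overlap value of a TE copy is deposited by the authors as other text within the annotation column.

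Each gene took the count of its best-covered transcript, because a read shared by transcripts enters each of them, and 0 where it was unlisted. Symbols came from RefSeq by locus tag for 12471 genes and by a synonym for 232, and 560 kept the CG number. Gene order and overlaps came from the BDGP6 annotation, whose coordinates are not printed. A row without a name (430 and 237 counts) was left out. Among tested identifiers 185 shared identical counts in 3 libraries with another, in 91 groups. Ratios had 0.5 added to each count. Intervals and floors (3 counts) cover counting error only. R 4.3.3 gave TMM factors (edgeR 4.0.16) and median-ratio size factors (DESeq2 1.42.0). Python 3.11.15 ran the rest, which was tested on simulated data.

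The members and 44 gene lists were chosen with earlier results of these data known, and Acp65Aa, Acp1, Cp110, Cp190 and the elongins were taken out of lists that a name pattern had put them in, after their values were seen. Genes were selected as the 15 largest ratios each way and the 10 with the most counts past 2-fold each way. From each list up to 4 that passed and 1 that did not were added. Of the genes selected by ratio, counts or list, 131 were past 2-fold. Members of runs of 4 neighbours and the 8 genes with the largest transcript departures were also taken. For TEs the rule took the 10 largest copies each way and the 5 largest families each way. Not all that these rules selected are described above. Others named, as remaining members of a list or family, were chosen after their values were seen. The iso1a whole body served only for side values. Alternatives were another scaling, another minimum count, summed transcripts, and TE copies with subsets left out. The Osiris family had no tested member.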

Additional observations from a re-analysis of the deposited data

How the results depend on the processing

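No paired analysis was possible because each line had 1 library. Direction held for all 131 selected genes past 2-fold under the scalings and sums tried. Another scaling moves all ratios by 1 amount, -0.09 with TMM factors, so only the sums could have reversed a direction. Of these genes 17 fell short of 2-fold under at least 1 of these settings, 16 with TMM factors. The number of genes past 2-fold followed the minimum count, with 260 higher and 197 lower at 200 counts and 1084 and 949 at 1 count, and it was 185 and 163 where the whole counting interval had to lie beyond 2-fold. Departing transcripts numbered 10 at a minimum of 200 counts. TE copies numbered 201 higher and 83 lower at a minimum of 20 counts, and 35 were higher without the Dvir_TART copies, an alternative chosen after seeing the data, as were those without the U stretch and without overlapping genes. TE families numbered 4 higher and 4 lower with TMM factors and 12 higher when scaled to the TE total. There were 3 lower without overlapping copies and 2 lower without the copy of each family with the most counts. The minimum and the subsets change which features enter, and another scaling moves all ratios by 1 amount. The cause of the other moves was not tested. Depth limits the genes with few counts, as for LysX, whose 33 and 42 counts leave an interval from -1.33 to 0.07 on the log2 scale.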
